A study of Mus musculus with 104 samples.

Results

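Mitochondrial ribosomal protein genes are described here across bulk RNA-seq libraries of mouse cerebral cortex, 52 from females and 52 from males. The genes were taken by symbol: every RefSeq symbol that starts with Mrpl or Mrps followed by a digit and that reached a mean of at least 1 CPM (read counts scaled to a common library size). All 77 matching symbols reached that level, out of 24060 RefSeq genes. Of these, 48 are named for the large subunit (Mrpl) and 29 for the small subunit (Mrps). The lowest gene inside the limit was Mrpl23 at 1.08 CPM, the next was Mrps36 at 3.02 CPM, and no matching gene lay outside it.

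Every mouse was labelled wild type, C57BL/6 and 6 months old, with no treatment. The mice belonged to 13 lines, each named in the labels after a gene, with 4 females and 4 males per line. Tbc1d8, Dach1, Gsg1l, Morf4l1, Rgs9 and Arpp19 had libraries on both of the study's plates. Zswim6, Hrk, Ece2, Rasgef1a, Pcdh20, Kdm3b and Ppp1ca were on plate 1 only. The labels tag the line as a batch, so line and batch cannot be told apart. The comparisons ask whether the genes of both subunits differ between lines, between sexes and between plates, and whether the subunits keep their proportion to each other.

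The mitochondrial ribosome translates the few proteins that mitochondrial DNA encodes, all of them parts of the respiratory chain and ATP synthase. Its RNAs are transcribed inside the organelle, while its proteins are encoded in the nucleus, made in the cytosol and imported. Some of these proteins have counterparts in bacterial ribosomes and others are found only in mitochondria. Not every symbol follows the structure: Mrps18a and Mrps30 encode proteins of the large subunit, and Mrps36 encodes a protein that links parts of the 2-oxoglutarate dehydrogenase complex and was first listed as a ribosomal protein.

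Library totals ran from 3.39 to 33.49 M reads (megareads), with a median of 28.38 M. Kdm3b female replicate 22 was the smallest, and every other library held at least 23.93 M. The 77 genes together took 0.149% to 0.181% of the reads of a library. The 9 pan-neuronal markers summed to 14324 to 15948 CPM in the lines other than Tbc1d8 and Gsg1l, against 176 to 212 CPM for 8 markers of striatal projection neurons. The hemoglobin genes Hbb-bs and Hbb-bt had 0 reads in every library, and Hba-a1 and Hba-a2 had at most 1 and 3. Alas2, another erythroid marker, had reads in every library, up to 55. The blood content of the tissue was not tested. Choroid plexus markers summed to 308 CPM in Rasgef1a male replicate 37, to 24.3 CPM in Arpp19 male replicate 1 and to at most 5.26 CPM elsewhere. In 3 libraries Xist and the Y genes did not match the labelled sex (Rgs9 female replicate 43, Rasgef1a male replicate 40 and Rasgef1a female replicate 39); they were analysed as labelled. Nnt, a mitochondrial transhydrogenase, was at 23.4 CPM in Gsg1l female replicate 14 and at 30.7 to 35.3 CPM in the other 7 libraries of that line, so that this library stood apart from its line. In bulk tissue, fewer cells of a type and less RNA per cell cannot be told apart.

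Transcript levels of the 77 genes spanned a wide range. On the FPKM scale, which scales reads to transcript length and library size, gene means ran from 1.85 to 46.7 for the large subunit, with a median of 16.7. For the small subunit they ran from 4.22 to 47.5, with a median of 14.2. The middle of the distribution was close in both, with quartiles of 11.8 and 23.8 FPKM for the large and 10.4 and 20.1 FPKM for the small subunit. Counting Mrps18a and Mrps30 with the large subunit and leaving out Mrps36 gave medians of 16.7 and 14.4 FPKM.

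The highest gene of the small subunit was Mrps21, at 47.5 ± 3.36 FPKM (SD over all libraries, range 42.2 to 63.4). It was followed by Mrps18a at 36.2 ± 2.19 FPKM and by Mrps12, the counterpart of the bacterial decoding-centre protein S12, at 35.4 ± 2.61 FPKM. Mrps26 at 31.6 ± 1.76 and Mrps7 at 23.7 ± 1.33 FPKM completed the highest 5. The range of Mrps21 overlapped those of Mrps18a and Mrps12, whose highest libraries reached 47.7 and 49.8 FPKM. At the other end stood Mrps36 at 4.22 ± 0.594, Mrps25 at 4.26 ± 0.244, Mrps33 at 5.70 ± 0.566, Mrps28 at 8.06 ± 0.786 and Mrps31 at 8.70 ± 0.638 FPKM. Mrps36 and Mrps25 differed by less than the spread between libraries.

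The highest gene of the large subunit was Mrpl20, at 46.7 ± 2.29 FPKM (SD over all libraries, range 41.7 to 56.4). Mrpl12, which forms the flexible stalk that recruits translation factors and is present in several copies per ribosome, followed at 40.96 ± 2.48 FPKM. Mrpl30 at 38.3 ± 2.29, Mrpl42 at 33.7 ± 2.57 and Mrpl3 at 28.95 ± 1.30 FPKM came next. Neighbours in this order overlapped in their ranges. The lowest were Mrpl23 at 1.85 ± 0.345, Mrpl17 at 3.15 ± 0.169, Mrpl1 at 3.36 ± 0.230, Mrpl15 at 4.90 ± 0.295 and Mrpl19 at 5.76 ± 0.343 FPKM.

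Part of this order goes with the transcript length that the deposited values imply. The implied length is 6712 bases for Mrpl17, 4188 bases for Mrpl1 and 6065 bases for Mrps25, against a median of 1053 bases over all 77 genes, and the same genes were near the middle in reads (21.1, 14.1 and 25.8 CPM). Mrpl23, the counterpart of a bacterial protein at the polypeptide exit tunnel, was low on both scales, with 4 to 46 reads per library. Its authors' Ensembl count was 2.98 times its RefSeq count. The ratio of Ensembl to RefSeq reads was within 10% of equality for 54 of 76 genes, and it was far from it for Mrpl53 (0.133), Mrps17 (2.02), Mrpl48 (1.97), Mrps5 (1.85) and Mrps10 (1.65). The levels of those genes therefore depend on the annotation.

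**Figure D1:**
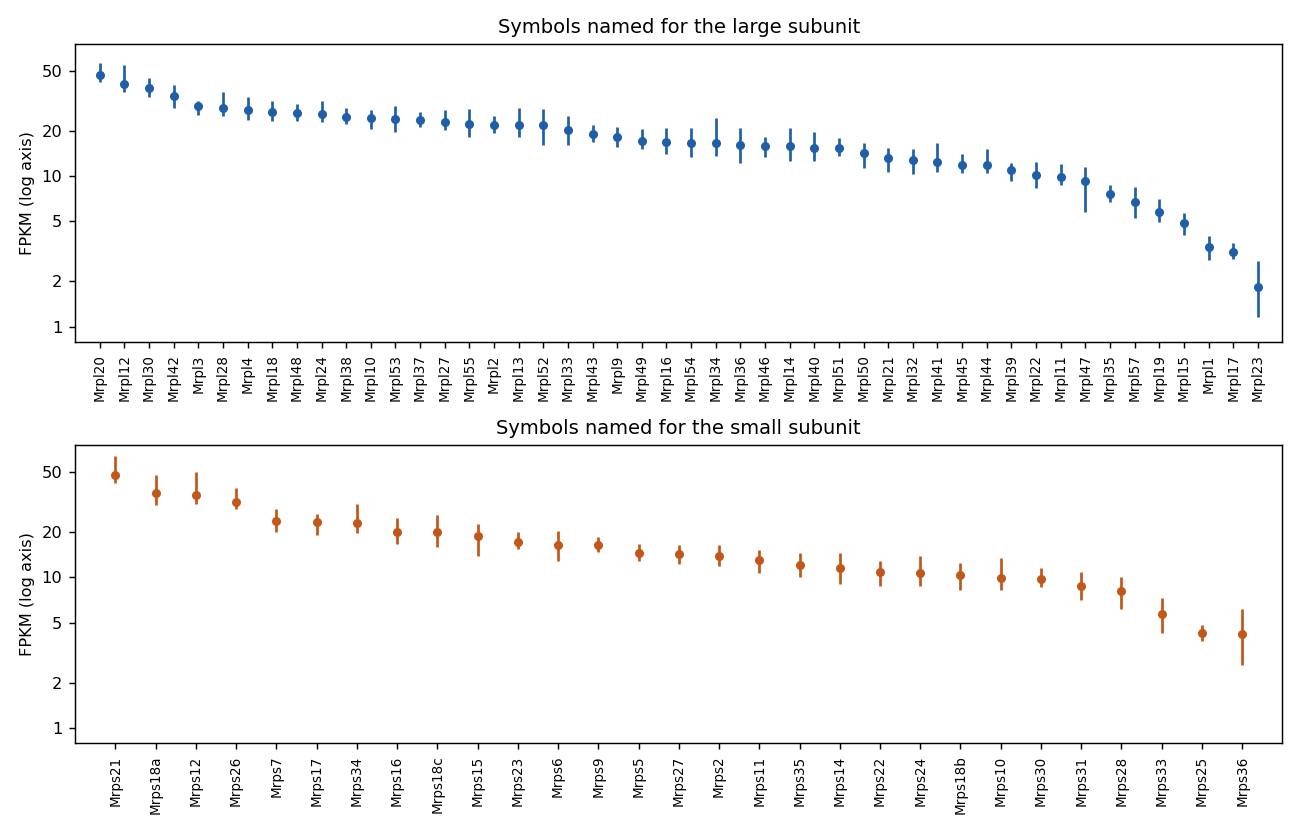
FPKM (log axis) of the 48 genes named for the large subunit (top) and the 29 named for the small subunit (bottom), in order of the mean. Points are means over all libraries and bars run from the lowest to the highest library; Mrpl20 (46.7) and Mrps21 (47.5) head the panels and Mrpl23 (1.85) is lowest.

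The proportion between the subunits varied little over libraries. A score was taken as the mean log2 CPM over the genes of a subunit in each library. The large score was 4.25 ± 0.033 (SD over all libraries, range 4.16 to 4.41) and the small score 4.00 ± 0.0345 (range 3.94 to 4.15). Their difference was 0.242 ± 0.021, and it ran from 0.185 to 0.284. Its size depends on the scale and the genes: it was 0.1564 without Mrps36 and 0.1041 on log2(FPKM + 1).

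The ranges of the lines in this difference overlapped. The line means ran from 0.224 ± 0.020 (SD, n = 8) in Dach1 to 0.258 ± 0.020 in Gsg1l, and the ranges of both lines overlapped (0.192 to 0.249 and 0.224 to 0.284). It was 0.243 ± 0.021 in 52 females and 0.240 ± 0.022 in 52 males. On plate 2 it was 0.235 ± 0.021 (n = 8), against 0.242 ± 0.021 on plate 1 (n = 96). No test was run on the scores.

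Both scores moved together over libraries. Pearson's r between them was 0.802 and Spearman's rho 0.742 over all libraries, and r was 0.733 without the 2 libraries farthest from the median of the large score. After the means of line and sex were removed, r was 0.827. Both scores share each library's scaling and RNA, so these values are a description; with library totals and no further scaling r was 0.828. One library lay beyond the rest: Gsg1l male replicate 13 had the highest score for both subunits (4.41 and 4.15). Without it, r was 0.755.

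**Figure D2:**
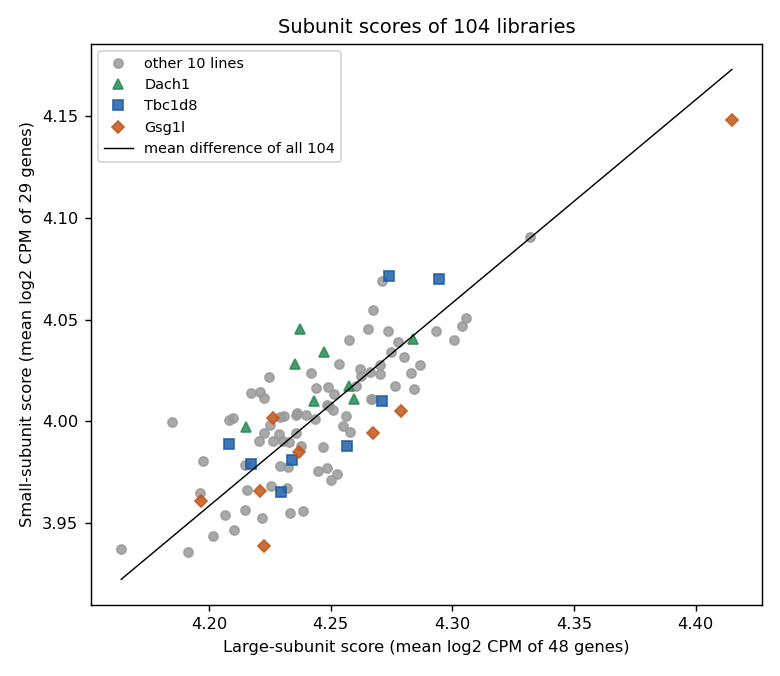
Large-subunit score (x axis) against small-subunit score (y axis), both in mean log2 CPM, for all libraries, with Dach1, Tbc1d8 and Gsg1l marked. The line has the mean difference of 0.242; the point at upper right is Gsg1l male replicate 13.

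Single genes varied little. The SD of log2 CPM within line and sex had a median of 0.091 over the 77 genes, from 0.055 for Mrpl37 to 0.251 for Mrpl23. The median was 0.118 over 15723 tested genes, and 0.135 over the 8599 of them whose mean CPM lay in the range of the 77. That range runs from 1.08 to 44.3 CPM, and within it the 8599 genes were not matched to the 77 in level. Counting error alone gives a median SD of 0.062 for the 77 genes at these depths. For 52 of 77 genes the measured SD was under 1.5 times the counting error.

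Pairs of the genes were weakly and positively correlated after line and sex were removed. The mean r was 0.120 over 1128 pairs within the large subunit, 0.101 over 406 pairs within the small subunit and 0.114 over 1392 pairs with one gene from each. The spread over pairs was larger than any gap between these means (SD 0.150, 0.139 and 0.148). The mean over all pairs of tested genes was 0.0008. For comparison, the mean r was 0.224 within 76 cytosolic ribosomal protein genes and 0.279 within 82 nuclear genes of the respiratory chain.

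Each gene was then set against the mean of the other 76. Mrpl12 had the highest r, at 0.66, with Mrps18a also at 0.66 and Mrps12 at 0.60. Mrpl43 (0.55) and Mrps21 (0.54) came next. The lowest were Mrpl3 and Mrps10, both at 0.011, and Mrpl23 at 0.018. Over the large subunit the median was 0.348 and over the small subunit 0.323, and 44 of 77 genes were above 0.3. With the Ensembl counts Mrpl12 was at 0.65, Mrps18a at 0.63 and Mrps12 at 0.60, while Mrpl3 was at 0.19 and Mrps10 at 0.11.

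Values with the own and with the other subunit lay close together. Of 48 large-subunit genes, 24 had a higher r with the other genes of their own subunit than with the small subunit. Of 29 small-subunit genes, 10 did. The means behind these values hold unequal numbers of genes, 48 large and 29 small, less the gene itself in its own subunit. A mean over more genes carries less noise. These counts, and the values of single genes below, therefore do not compare own and other subunit on equal terms. Mrps18a, a large-subunit protein despite its name, had 0.618 with the genes named for the small subunit and 0.639 with those named for the large. Mrps30, likewise a large-subunit protein, had 0.297 and 0.191. Mrpl46 and Mrps11, which lie head to head on opposite strands and belong to different subunits, had an r of 0.452 with each other.

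**Figure D3:**
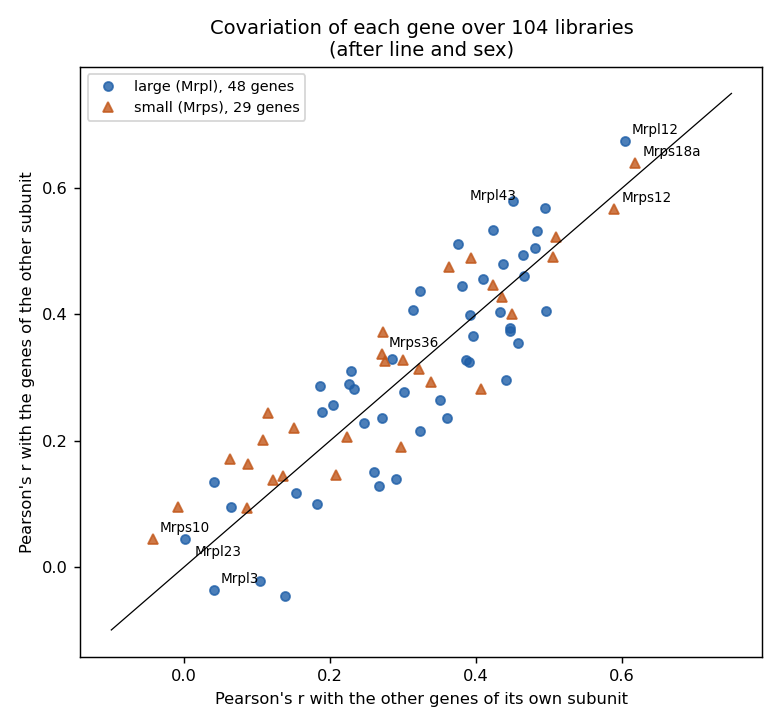
For each of 77 genes, Pearson's r over all libraries with the mean of the other genes of its own subunit (x axis) and of the other subunit (y axis), after line and sex. Points lie along the line of equal values for both subunits, from Mrpl3 and Mrps10 near 0 to Mrpl12 and Mrps18a above 0.6.

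Several lists of other mitochondrial genes varied along with the 77, and others did so little or not at all. The mean log2 level of the 77 genes, after line and sex, had an r of 0.768 with that of the nuclear respiratory chain genes and 0.698 with 5 mitoribosome proteins whose symbols fall outside the Mrp pattern (Dap3, Ptcd3, Aurkaip1, Chchd1 and Gadd45gip1). It was 0.652 with cytosolic ribosomal protein genes and 0.641 with 10 genes of the mitochondrial unfolded protein response. It was 0.516 with 24 genes of mitoribosome assembly and rRNA processing, 0.303 with 15 translation factors and 0.012 with 9 genes of mitochondrial transcription. With 10 transcription factors and coactivators of nuclear genes for mitochondrial proteins it was -0.137. Without the 2 libraries farthest from the median, r was 0.674 for the respiratory chain and 0.606 for the 5 other mitoribosome proteins. It was then 0.590 for cytosolic ribosomal proteins, 0.581 for the unfolded protein response, 0.463 for assembly and 0.233 for translation factors. For mitochondrial transcription it was then -0.083, and for the transcription factors and coactivators -0.088. Among cell type markers, r was 0.399 for interneurons (0.243 without the 2 libraries farthest from the median), 0.376 for endothelial cells (0.319 without them), 0.285 for pan-neuronal genes, 0.124 for astrocytes and 0.039 for oligodendrocytes. These are correlations over libraries that share their scaling, and the part of cell composition in them was not tested. The lists also differ in size and in how far their own genes vary together. The mean r between genes of a list was 0.279 for the respiratory chain and 0.089 for the transcription factors and coactivators. It was 0.040 for translation factors, 0.030 for assembly and 0.015 for mitochondrial transcription. The part of this in the values above was not tested.

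The promoters of the 5 genes with the highest r with the others (Mrpl12 to Mrps21) are shown with those of the 4 genes called for line, described further on (Mrpl28 to Mrpl50). RefSeq promoter sequence on GRCm38.p6 was at hand for 68 of the 77 genes, from 250 bases before to 50 bases after the start. The windows below run from 120 bases before the start to 30 bases after it, 5′ to 3′ on the gene's strand. Capitals mark matches, on either strand, to the ETS core CCGGAAG, recognised by GABP and other ETS factors, or to AAGATGGC, a YY1 motif.
Mrpl12, chr11:120484517-120484666, plus strand: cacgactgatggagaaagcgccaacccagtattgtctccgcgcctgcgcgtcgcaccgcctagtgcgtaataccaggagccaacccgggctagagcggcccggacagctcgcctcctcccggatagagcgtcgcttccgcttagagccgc
Mrps18a, chr17:46110884-46111033, plus strand: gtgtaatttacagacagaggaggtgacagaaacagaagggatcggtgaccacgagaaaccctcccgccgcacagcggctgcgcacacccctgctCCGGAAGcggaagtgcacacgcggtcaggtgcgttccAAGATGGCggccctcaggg
Mrps12, chr7:28741792-28741941, minus strand: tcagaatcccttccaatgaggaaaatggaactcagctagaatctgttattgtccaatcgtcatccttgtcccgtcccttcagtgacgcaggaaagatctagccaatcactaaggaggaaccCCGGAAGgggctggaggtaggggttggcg
Mrpl43, chr19:45006413-45006562, minus strand: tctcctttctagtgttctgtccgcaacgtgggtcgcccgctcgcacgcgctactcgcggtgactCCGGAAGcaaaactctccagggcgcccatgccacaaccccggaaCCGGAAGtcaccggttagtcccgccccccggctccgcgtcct
Mrps21, chr3:95871485-95871634, minus strand: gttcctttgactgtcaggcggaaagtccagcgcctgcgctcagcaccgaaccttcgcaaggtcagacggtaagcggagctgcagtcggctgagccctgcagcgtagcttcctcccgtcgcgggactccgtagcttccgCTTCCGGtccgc
Mrpl28, chr17:26123383-26123532, plus strand: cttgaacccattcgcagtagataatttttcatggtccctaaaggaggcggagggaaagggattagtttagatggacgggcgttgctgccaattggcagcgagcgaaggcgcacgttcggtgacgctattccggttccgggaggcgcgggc
Mrpl42, chr10:95501920-95502069, minus strand: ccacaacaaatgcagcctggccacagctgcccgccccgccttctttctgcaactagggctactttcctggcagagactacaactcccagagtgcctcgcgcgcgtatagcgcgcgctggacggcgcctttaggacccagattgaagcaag
Mrpl48, chr7:100608272-100608421, minus strand: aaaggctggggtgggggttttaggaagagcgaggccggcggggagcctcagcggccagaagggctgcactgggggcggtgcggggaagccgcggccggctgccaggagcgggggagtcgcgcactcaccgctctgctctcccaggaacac
Mrpl50, chr4:49521054-49521203, minus strand: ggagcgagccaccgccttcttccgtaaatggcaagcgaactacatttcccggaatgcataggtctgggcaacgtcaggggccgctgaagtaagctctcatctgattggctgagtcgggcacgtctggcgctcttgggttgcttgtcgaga

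Mrps18a had an ETS match from base -26 and a YY1 match from base 12, counted from the start as base 1. Mrps12 had an ETS match from base 2 and, outside the printed window, a YY1 match on the opposite strand from base -199. Mrpl43 had ETS matches from bases -56 and -12, and Mrps21 had one on the opposite strand from base 19. Mrpl42 had a YY1 match from base 28, which runs past the printed window and so is not in capitals. Mrpl12, which had the highest r, had no match to these letters in the 300 bases, and neither did Mrpl28, Mrpl48 and Mrpl50. Over the 68 genes, the ETS core was present in 25 (36.8%), against 9.93% of 27025 RefSeq symbols with a promoter of the same length and 17.3% of the 11599 among them that were tested for expression. AAGATGGC was present in 12 genes (17.6%), against 3.19% and 4.65%. The NRF1 core GCATGCGC was present in 8 genes (11.8%), against 3.05% and 5.52%. Both strands were searched, and the last letters of the ETS core (AAG) are also the first letters of the YY1 motif. A gene with several listed starts counted once if any of its windows matched. At least 1 of the 3 was found in 23 of 42 large-subunit and 14 of 26 small-subunit genes. The 25 genes with an ETS match had a median r of 0.401 with the other genes, and the 43 without had 0.305. Their levels differed too, with a median of 19.8 FPKM with a match and 15.3 FPKM without, and the part of level in r was not tested. A match is a run of letters, not a measured binding site.

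Many of these genes lie head to head with another gene. The 77 genes were spread over 17 chromosomes, with 10 on chromosome 11. In the GENCODE annotation, 18 of 77 (23.4%) had a protein-coding gene that starts on the opposite strand within 1000 bases upstream and points away without overlapping it, against 6.79% of 21951 protein-coding genes. Pairs whose starts overlap in GENCODE, such as Mrpl46 and Mrps11, are not in this count. Of the 18, 12 belonged to the large and 6 to the small subunit. Examples are Mrps18c with Helq at 29 bases, Mrpl54 with Apba3 at 26 bases and Mrpl49 with Fau, a cytosolic ribosomal protein gene, at 59 bases.

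The line means of each gene were compared in edgeR, with the quasi-likelihood F-test and a model that included sex. Benjamini-Hochberg adjustment ran over 15723 genes. A gene was called at an adjusted p under 0.05. Of all genes, 9.61% were called. Of the 77 genes, 4 were called, which is 5.19%, and all 4 belong to the large subunit: Mrpl50, Mrpl42, Mrpl28 and Mrpl48. At an unadjusted p under 0.05 there were 13 of 48 large-subunit and 4 of 29 small-subunit genes. Over all 15723 tested genes, 3702 had such a p. The difference between the subunits was not tested.

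Mrpl50, at chr4:49512597-49521083 on GRCm38, encodes a large-subunit protein found only in mitochondria. It was at 24.5 to 28.1 CPM (median 26.4) in the 8 Tbc1d8 libraries and at 23.6 to 28.9 CPM (median 27.3) in the 8 Gsg1l libraries. In the 88 libraries of the other 11 lines it ran from 26.3 to 34.9 CPM with a median of 30.7. All 16 libraries of both lines lay below that median, and 3 in each line lay below the lowest of the 88. The ranges overlapped, with 6 of the 88 under the highest Tbc1d8 library and 14 under the highest Gsg1l library. The F value over lines was 7.45 (edgeR adjusted p = 2.33e-07).

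Mrpl42, at chr10:95480805-95501949, also encodes a protein particular to the mitochondrial large subunit. It was at 18.7 to 21.3 CPM (median 19.9) in Tbc1d8, at 18.5 to 23.9 CPM (median 19.7) in Gsg1l and at 19.4 to 27.1 CPM (median 22.9) in the other 11 lines. All 8 Tbc1d8 libraries and 7 of 8 Gsg1l libraries were below the median of the others. The exception was Gsg1l female replicate 14, at 23.9 CPM. The F value was 5.55 (edgeR adjusted p = 2.87e-05).

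Mrpl28, at chr17:26123503-26126613, encodes the counterpart of bacterial L28 and was higher in the same lines. It was at 30.4 to 35.1 CPM (median 32.9) in Tbc1d8, at 28.5 to 37.2 CPM (median 31.2) in Gsg1l and at 26.7 to 34.2 CPM (median 29.5) in the other 11. All 8 Tbc1d8 and 7 of 8 Gsg1l libraries were above the median of the others, though most lay inside their range. The F value was 4.29 (edgeR adjusted p = 0.000723).

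Mrpl48, at chr7:100545779-100608301, was called with the smallest margin (F 2.72, edgeR adjusted p = 0.0385). Its line means were highest in Gsg1l (28.8 ± 1.16 CPM, SD, n = 8), Dach1 (28.6 ± 1.05) and Tbc1d8 (28.5 ± 1.51), and 26.6 to 27.9 CPM in the other 10. In edgeR the call was lost with plate 1 only and without a filter on low counts (edgeR adjusted p = 0.0691 in both) and with marker scores as covariates (0.0953). Rab6a overlaps Mrpl48 on the other strand and was lower in the same lines, by 0.12 ± 0.02 (log2, SE) in Tbc1d8 and by 0.11 ± 0.02 in Gsg1l. The sources used here do not say whether reads were counted by strand.

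**Figure D4:**
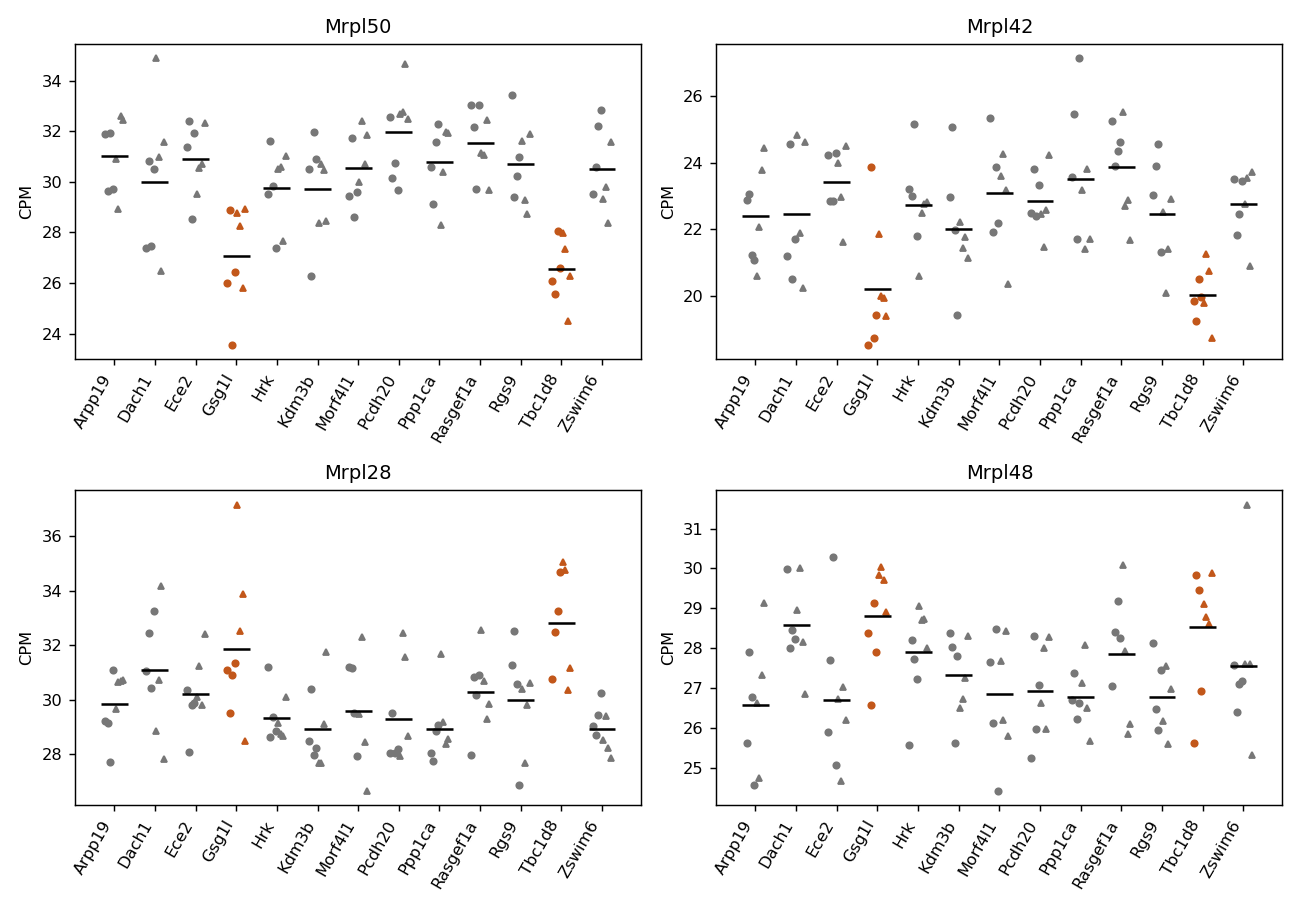
CPM of the 4 genes called for line, by line; circles are females, triangles are males, black bars are line means (n = 8), and Tbc1d8 and Gsg1l are coloured. Mrpl50 and Mrpl42 sit lower in Tbc1d8 and Gsg1l, Mrpl28 sits higher, and the axes do not start at 0.

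Each line was also compared with the mean of the other 12. In Tbc1d8, 3 of the 77 genes were higher and 4 lower; over all genes 5.66% were higher and 6.79% lower. The 7 are 9.09% of the 77, beside 12.4% of all genes. All 7 belong to the large subunit, but 3 small-subunit genes lay just past the threshold: Mrps17, Mrps25 and Mrps6, with edgeR adjusted p of 0.0502, 0.0532 and 0.0568. Mrps17 was called in 9 of the alternatives, Mrps25 in 6 and Mrps6 in 3. Mrpl40 of the large subunit also lay just past the threshold (edgeR adjusted p = 0.0525) and was called in 10 of the alternatives. Mrpl50 fell by 0.19 ± 0.03 on the log2 scale (SE), Mrpl42 by 0.18 ± 0.03, Mrpl19 by 0.11 ± 0.03 and Mrpl51 by 0.10 ± 0.03. Mrpl54 rose by 0.17 ± 0.04, Mrpl28 by 0.14 ± 0.03 and Mrpl21 by 0.12 ± 0.04. Their edgeR adjusted p ran from 8.98e-07 (Mrpl50) to 0.0241 (Mrpl21). Without a single Tbc1d8 library the count ran from 5 to 11, with 5 without female replicate 46 and 11 without female replicate 45, and Ensembl counts gave 12.

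Mrpl54 and Mrpl51 are proteins found only in mitochondrial ribosomes, and Mrpl19 and Mrpl21 have bacterial counterparts. Mrpl54 was at 10.8 ± 0.563 CPM (SD, n = 8) in Tbc1d8 and at 9.55 ± 0.764 CPM in the 88 libraries of the other 11 lines, with all 8 above the median of those. Mrpl51 was at 21.7 ± 0.631 CPM in Tbc1d8 and 23.3 ± 1.39 CPM in the 88, with all 8 below their median. Mrpl19 was at 26.9 ± 1.82 against 29.1 ± 1.69 CPM and Mrpl21 at 14.03 ± 1.06 against 12.9 ± 0.948 CPM, with 6 of 8 libraries on the side of the difference.

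In Gsg1l, 6 of the 77 genes were higher and 4 lower, against 4.86% and 5.58% of all genes. The 10 are 12.99% of the 77, beside 10.4% of all genes. The lowest by fold was Mrps36, the dehydrogenase component, which fell by 0.30 ± 0.07 on the log2 scale (SE; edgeR adjusted p = 0.00204). It was at 1.86 to 2.89 CPM (median 2.45) in Gsg1l and at 2.34 to 4.43 CPM (median 3.03) in the other 11 lines, with 8 of 8 below that median; in Tbc1d8 its mean was 3.03 ± 0.491 CPM (n = 8). Mrpl50 and Mrpl42 both fell by 0.16 ± 0.03 and Mrpl15 by 0.10 ± 0.03. Mrpl14 rose by 0.16 ± 0.04, Mrpl16 by 0.12 ± 0.03, Mrps24 by 0.11 ± 0.04, Mrpl41 by 0.10 ± 0.03, Mrpl28 by 0.09 ± 0.03 and Mrpl48 by 0.08 ± 0.03. The call of Mrpl48 was lost in 12 of 21 alternatives, with an edgeR adjusted p of up to 0.127, and that of Mrpl41 in 6 of 21.

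All 6 higher calls in Gsg1l were lost without the library with the highest scores. For each of these 6 genes, 7 Gsg1l libraries lay above the median of the other 11 lines and 1 lay below it. Without Gsg1l male replicate 13, 5 of 77 genes were called, and Mrpl14 (adjusted p = 0.0662), Mrpl16 (0.0974), Mrpl28 (0.235), Mrpl41 (0.236), Mrpl48 (0.115) and Mrps24 (0.221) were no longer called by edgeR. Without male replicate 15, 5 were called as well. Without female replicate 14, the library that stood apart from its line, 11 were called. Mrpl50, Mrpl42 and Mrps36 were called under every one of the 21 alternatives run on them.

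**Figure D5:**
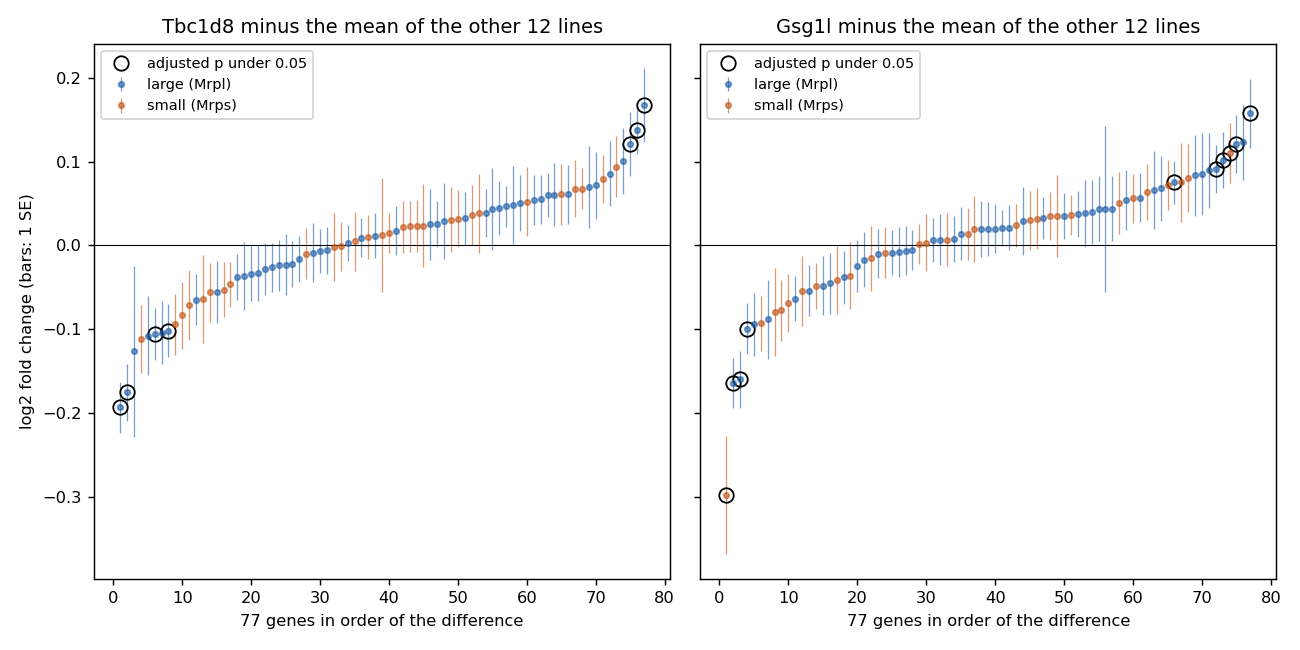
log2 fold change of each of 77 genes in Tbc1d8 (left) and Gsg1l (right) against the mean of the other 12 lines, in order of size, with bars of 1 SE and circles for an edgeR adjusted p under 0.05. Both panels are centred near 0; Mrpl50 and Mrpl42 are among the lowest in each, and Mrps36 is lowest in Gsg1l.

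The median over the 77 genes was near 0 in both lines. It was 0.012 on the log2 scale in Tbc1d8 and 0.020 in Gsg1l, beside 0.005 and 0.006 over all tested genes. By subunit the medians were 0.010 (large) and 0.014 (small) in Tbc1d8, and 0.021 and 0.014 in Gsg1l. The comparisons of the 2 lines share the other 11 lines as reference. In each of those 11, tested the same way, 0 of 77 genes were called. Per line, 1 to 12 had an unadjusted p under 0.05, beside 445 (Pcdh20) to 2120 (Kdm3b) of 15723 tested genes. Of all tests pooled over these lines, 0.0347% were called. The smallest edgeR adjusted p of the 77 genes in these lines was 0.229, for Mrpl51 in Rasgef1a. DESeq2 was run for Tbc1d8 and Gsg1l, not for these 11 lines.

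Cell type markers were read in these 2 lines. Over all 15723 tested genes, 12.4% were called in Tbc1d8 and 10.4% in Gsg1l, and 4004 and 3879 had an unadjusted p under 0.05. Of 8 oligodendrocyte markers, 0 were called in either line, and their summed level ran from 1902 to 2303 CPM in Tbc1d8, 1817 to 2629 in Gsg1l and 1513 to 2747 in the other 11 lines. All 8 had a log2 difference below 0 in both lines, with a median of -0.10 in Tbc1d8 and -0.12 in Gsg1l, and 2 and 3 of them had an unadjusted p under 0.05. Of 9 pan-neuronal markers, 4 were called in each line, 2 up and 2 down in Tbc1d8 and 3 up and 1 down in Gsg1l, with summed levels of 14538 to 15543, 14670 to 15691 and 14324 to 15948 CPM. Of 6 microglia markers, 1 was called, higher, in Gsg1l, where all 6 differences were above 0 (median 0.08, 4 with an unadjusted p under 0.05). In Tbc1d8, 0 were called and 5 of 6 were above 0 (median 0.06). Of 8 striatal projection neuron markers, 2 were called in each line, 1 up and 1 down. Interneurons had 1 of 6 called in each line, lower, with 1 of 6 above 0. Hippocampal neurons had 1 of 6 called, higher, in Tbc1d8 and 0 in Gsg1l. No marker of astrocytes, endothelial cells, meningeal fibroblasts, choroid plexus or erythroid cells was called in either line. The covariate fit that follows held no pan-neuronal, interneuron, hippocampal, astrocyte, microglia, endothelial or fibroblast score. The part of those cell types in the line differences was not tested. The fit held marker scores of striatal projection neurons, oligodendrocytes, choroid plexus and erythroid cells. With these added to the model as covariates, 6 of 77 genes were called in Tbc1d8 and 6 in Gsg1l. The part of these cell types was not tested further.

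Genes close to the called ones were also examined. Within 1 Mb of Mrpl50, 0 of 9 tested genes were called for line, and within 1 Mb of Mrpl42, 1 of 10 (Ube2n). Around Mrpl28, 7 of 57 were called, and around Mrpl48, 5 of 29, beside 9.61% of all genes. Mrps30, a large-subunit protein gene, lies 0.948 Mb from Nnt on chromosome 13. Nnt rose by 0.55 ± 0.03 (log2, SE) in Tbc1d8 and by 0.47 ± 0.03 in Gsg1l, while Mrps30 was at 15.8 ± 0.516 CPM (SD, n = 8) in Tbc1d8, 15.6 ± 0.845 in Gsg1l and 15.5 ± 0.932 in the 88 other libraries, with log2 differences of 0.02 ± 0.03 and 0.01 ± 0.03.

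Between the sexes no gene of the 77 was called, while 4.07% of all genes were higher and 4.5% lower in females. Differences ran from -0.04 to 0.06 on the log2 scale, 45 of 77 were above 0, and 6 had an unadjusted p under 0.05. Over all 15723 tested genes, 7891 were above 0 and 3550 had such a p. The closest were Mrpl57, higher in females by 0.06 ± 0.02 (SE, edgeR adjusted p = 0.0788), and Mrpl36, also by 0.06 ± 0.02 (adjusted p = 0.0807), both of the large subunit. By edgeR, Mrpl57 was called without the Kdm3b line (edgeR adjusted p = 0.0225) and Mrpl36 with plate 1 only (0.0448). DESeq2 called 0 of 77, and so did the fit without the 3 libraries that did not match their labelled sex.

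No gene of the 77 was called for a sex difference that varied by line. The interaction of sex and line called 0 of 77, with 0.0382% of all genes called. An unadjusted p under 0.05 was found for 4 of 77, beside 597 of 15723 tested genes. Mrps34 (F 2.74) and Mrpl18 (F 2.60) came closest, and both had an edgeR adjusted p of 1.00. DESeq2 was not run for the interaction or for plate. Between plates 0 of 77 were called, against 0.242% of all genes. Mrpl1 was lower on plate 2 by 0.11 ± 0.04 (log2, SE) and Mrpl53 higher by 0.11 ± 0.04, with edgeR adjusted p of 0.149 and 0.176. In all, 11 of 77 had an unadjusted p under 0.05 for plate, and 54 of 77 were higher on plate 2, which held 8 libraries of 6 lines. Over all 15723 tested genes, 1970 had such a p and 7733 were higher on plate 2.

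Genes that work with the mitochondrial ribosome were read from lists. The counts below stand beside 9.61% of all genes called for line and 4.07% higher and 4.5% lower in females. For Tbc1d8 the shares of all genes were 5.66% (higher) and 6.79% (lower), and for Gsg1l they were 4.86% and 5.58%. Of 5 mitoribosome proteins outside the Mrp pattern, 0 were called for line, Tbc1d8 or Gsg1l. For sex, Ptcd3, a small-subunit protein, was higher in females (42.3 ± 1.71 against 40.9 ± 2.02 CPM, SD, n = 52 each), by 0.05 ± 0.01 on the log2 scale (edgeR adjusted p = 0.0132). Gadd45gip1, a large-subunit protein, was lower in females (20.8 ± 1.31 against 21.7 ± 1.63 CPM) and fell by 0.06 ± 0.02 (edgeR adjusted p = 0.0386). The other 3 of the 5 were not called.

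Of 24 genes of mitoribosome assembly and rRNA processing, 0 were called for line and in Gsg1l, and 2 were lower in Tbc1d8. Ddx28, a helicase of large-subunit assembly, was at 9.59 ± 0.557 CPM (SD, n = 8) in Tbc1d8 and 10.6 ± 0.779 CPM in the 88 libraries. Rnmtl1, an rRNA methyltransferase also known as Mrm3, was at 8.63 ± 0.618 against 9.51 ± 0.714 CPM. Nsun4, another rRNA methyltransferase, was the 1 gene of the list called for sex, higher in females by 0.06 ± 0.02 (log2, SE; edgeR adjusted p = 0.0460).

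Of 15 translation factors, 3 were higher in females and 0 lower. Taco1, an activator of cytochrome oxidase translation, rose by 0.09 ± 0.02 (log2, SE), Mrrf, the ribosome recycling factor, by 0.08 ± 0.02 and Lrpprc, which stabilises mitochondrial mRNAs, by 0.04 ± 0.01, with edgeR adjusted p of 0.00155, 0.00305 and 0.00398. In Gsg1l, Gfm1 (elongation factor G1) fell by 0.09 ± 0.03 and Lrpprc by 0.07 ± 0.02. In Tbc1d8, Taco1 fell by 0.13 ± 0.04 and Gfm2, a recycling factor, rose by 0.09 ± 0.03. Taco1 was the 1 gene of the list called for line (edgeR adjusted p = 0.0385).

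Of 9 genes of mitochondrial transcription, Tfam, which packages mitochondrial DNA, was called for line. It was at 31.2 ± 1.36 CPM (SD, n = 8) in Tbc1d8, 31.6 ± 2.09 CPM in Gsg1l and 33.45 ± 1.28 CPM in the other 11 lines, a fall of 0.09 ± 0.02 and 0.08 ± 0.02 on the log2 scale (SE). Tfb2m fell by 0.20 ± 0.05 in Tbc1d8 and was not called in Gsg1l. Of 10 transcription factors and coactivators of nuclear genes for mitochondrial proteins, Ppargc1b fell by 0.18 ± 0.06 in Tbc1d8 and 0.23 ± 0.06 in Gsg1l, and Gabpb2, a subunit of GABP, rose by 0.11 ± 0.04 in Tbc1d8. Ppargc1b was the 1 gene of these 10 called for line (edgeR adjusted p = 0.0168).

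Of 10 genes of the mitochondrial unfolded protein response, 4 were lower and 0 higher in each of the 2 lines, against 6.79% of all genes lower in Tbc1d8 and 5.58% in Gsg1l. Atf5, a transcription factor of that response, was at 12.7 ± 0.854 CPM (SD, n = 8) in Tbc1d8, 13.4 ± 1.45 CPM in Gsg1l and 18.4 ± 3.27 CPM in the other 11 lines, where single libraries reached 11.7 and 42.02 CPM. It fell by 0.49 ± 0.08 and 0.41 ± 0.08 on the log2 scale (SE). Hspa9, a matrix chaperone, fell by 0.13 ± 0.02 and 0.10 ± 0.02 and the protease Lonp1 by 0.10 ± 0.02 and 0.07 ± 0.02. The fourth was the chaperonin Hspd1 in Tbc1d8 and Clpx in Gsg1l. Atf5, Hspa9 and Lonp1 were also called for line, 3 of 10 beside 9.61% of all genes. Trap1 was the 1 gene of the list called for sex, higher in females by 0.05 ± 0.01 (edgeR adjusted p = 0.000242). Beside these, cytosolic ribosomal protein genes had 15 of 76 lower and 0 higher in females, with a median of -0.04 on the log2 scale, where the 77 mitochondrial ones had 0 called and a median of 0.005; the difference between these lists was not tested.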

How the data were processed

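RNA from the cortex of wild type mice was extracted with RNeasy and made into TruSeq stranded libraries, per the labels' protocols. STAR 2.7.3a, HTSeq 0.10.0 and the GRCm38/mm10 build are named in the submitters' processing notes; the counting mode and strand setting are not given in the sources used here. The authors deposited whole-number read counts per RefSeq gene, which were the main input, a table of counts per Ensembl gene and FPKM values per RefSeq gene. Each library was taken as 1 mouse.

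Counts were scaled by TMM, filtered with filterByExpr by line and sex and tested with edgeR 4.0.16 (glmQLFit, glmQLFTest) in R 4.3.3, with line and sex in 1 model, and adjusted over all tested genes. log2 CPM used a prior count of 2. DESeq2 1.42.0, limma 3.58.1 on log2 FPKM, Ensembl counts, other scalings and filters, plate 1 only, marker covariates and left-out libraries or lines were the alternatives. The tests were checked on simulated data. Promoter sequences came from RefSeq on GRCm38.p6.

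Library totals were 3.39 to 33.49 M reads; counting error limits the genes with few reads, above all Mrpl23. The genes and the gene lists were chosen with earlier results of these data known. Genes were named by rule: the 5 highest and 5 lowest by FPKM per subunit, those called for line or sex, up to 6 per direction called in a line, the 3 highest and 3 lowest by correlation, the 2 smallest p for interaction and plate, those near the 1 CPM limit, and Mrps18a, Mrps18b, Mrps18c, Mrps30, Mrpl12 and Mrps36; of pathway genes, up to 4 called per list and comparison; and Nnt beside Mrps30. Mrpl36, Mrpl37, Mrpl40, Mrpl43, Mrpl46, Mrpl49, Mrpl57, Mrps5, Mrps6, Mrps11 and Mrps17 were named after their values were seen.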

Additional observations from a re-analysis of the deposited data

Results flagged for a closer look

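Within each line of 8 libraries, the gap of the highest or lowest library to its nearest neighbour was compared with the range of the line. Of 91 groups of values tested this way, 6 had a library beyond Dixon's 95% critical value for 8 samples, and chance gives about 1 in 20. Gsg1l male replicate 13 was the highest of its line in the large-subunit score, at 4.415 against 4.197 to 4.279 in the other 7, and in the small-subunit score, at 4.149 against 3.938 to 4.005. That library, with 27.8 M reads, also had the highest summed level of all libraries for nuclear respiratory chain genes (8806 CPM) and cytosolic ribosomal protein genes (3039 CPM), and the lowest for astrocyte markers (5022 CPM). Its summed level also ranked 1 from the highest for striatal projection neuron markers (218 CPM), 2 for pan-neuronal markers (15691 CPM) and 3 for microglia markers (357 CPM). The part of these in its scores was not tested.

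Arpp19 male replicate 1 had the lowest difference between the large and small scores in its line, at 0.1853 against 0.2407 to 0.2635. Ppp1ca male replicate 35 was lowest in its line at 0.2063, against 0.2401 to 0.2692. Mrpl28 stood at 31.69 CPM in Ppp1ca male replicate 33, against 27.7 to 29.2 CPM in the other 7 libraries of the line. Mrpl48 stood at 31.6 CPM in Zswim6 male replicate 50, against 25.3 to 27.6 CPM.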

How the results depend on the processing

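The number of the 77 genes called ran from 3 to 6 for line (4 as reported) over the alternatives of scaling, filter, tool, counts, covariates and left-out libraries. For Tbc1d8, 7 were called as reported and 12 with Ensembl counts, and 5 to 11 when each Tbc1d8 library was left out in turn. For Gsg1l, 10 were called as reported, 6 with marker scores as covariates, and 5 to 11 when each Gsg1l library was left out. For sex, 0 were called as reported, 1 with plate 1 only (Mrpl36), and 0 to 1 when each line was left out. With the replicate block, 0 were called for sex; same-numbered libraries of the 2 sexes had a median correlation of 0.017 over 52 pairs, and 8 pairs were over 0.1, so the numbers were not taken to pair the mice. For the interaction and for plate, 0 were called under every alternative run on them. The large minus small score was 0.2899 with medians in place of means, 0.2846 with Mrps18a and Mrps30 counted as large, 0.1564 without Mrps36 and 0.1041 on log2(FPKM + 1). Of 409 values for single named genes under alternatives, 362 kept their call, 47 lost it and 0 changed direction. Those of the line F-test have no direction and could not count as changed. The causes were not tested. Over all genes, line calls went from 1511 to 1001 with plate 1 only and 999 with marker covariates, and Tbc1d8 calls from 1957 to 1099 with plate 1 only. Interaction calls went from 6 to 1 without the 3 libraries that did not match their labelled sex, and plate calls from 38 to 21 without a filter and 8 with marker covariates. Depth limits Mrpl23 and Mrps36, which had the fewest reads.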
